A study of Mus musculus with 16 samples.

Results

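Rab proteins are small GTPases of membrane traffic, and their genes were examined here in the RNA of cultured mouse motoneurons. The members are all protein-coding genes whose symbol is Rab followed by a number and, where present, a letter and a further digit. This rule found 59 of the 46320 genes in the count table. Proteins that only carry a Rab gene's name in theirs, such as Rab-interacting proteins, were not members. The members were sorted by textbook function into 15 secretory genes of the endoplasmic reticulum, the Golgi and traffic to the cell surface, 22 endosomal genes, 8 synaptic genes of regulated vesicle release and 14 others.

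Motoneurons were enriched by panning with a p75NTR antibody from the lumbar spinal cord of mouse embryos of embryonic day 13 and grown in microfluidic chambers, whose channels let axons into an axonal compartment and hold cell bodies and dendrites back. The 4 groups of 4 libraries were the somatodendritic and axonal compartments of +/+ (WT) motoneurons and of Hnrnpr-/- (KO) motoneurons, whose mice carry a CRISPR/Cas9 deletion of the first exons of Hnrnpr, the gene of the RNA-binding protein hnRNP R, in all cells. All groups received CNTF at 5 ng/ml in both compartments and BDNF at 20 ng/ml in the axonal compartment alone, so axonal and somatodendritic RNA also differ in this factor. The cDNA of polyadenylated RNA went through 10 PCR cycles in the somatodendritic groups and 15 in the axonal groups, and this difference cannot be told apart from the compartment. Age in culture and the number of embryos behind a library were not given in the sources used here, and the p-values below therefore measure the spread between these libraries.

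Total counts per library ranged from 22024923 to 34864151. Hnrnpr itself was counted at 178 to 241 CPM (counts scaled to a common library size) in +/+ somatodendritic and at 119.98 to 422 CPM in +/+ axonal libraries, against 0.545 to 1.16 CPM in the 8 Hnrnpr-/- libraries. Motoneuron markers were sparse: the summed level of 8 such genes was 17.0 to 33.8 CPM in +/+ somatodendritic and 2.85 to 17.4 CPM in axonal libraries. Among them, Mnx1 was at 0 in all 8 somatodendritic libraries, and Chat, the enzyme of acetylcholine synthesis, was at most 1.31 CPM in any library. Genes shared by all neurons were plentiful in the somatodendritic compartment, where the sum of 8 of them, from Tubb3 to Syt1, was 5694 to 8728 CPM. In axons this sum was 2152, 3229, 648 and 2270 CPM in the +/+ libraries numbered 1 to 4 and 4855, 2153, 426 and 841 CPM in the Hnrnpr-/- libraries. The sum of 6 pericyte or smooth muscle genes was 29.7 to 450.5 CPM in the somatodendritic compartment, whereas it was 2849, 1472, 11749 and 5593 CPM in +/+ axons and 2864, 2321, 10519 and 4209 CPM in Hnrnpr-/- axons. The sum of 6 astrocyte or radial glia genes was 903 to 2008 CPM in the somatodendritic and 1901 to 4703 CPM in the axonal compartment. The axonal libraries numbered 3 thus had the lowest neuronal and the highest smooth muscle sum of each genotype. In such bulk samples, fewer cells of a type and less RNA per cell cannot be told apart. The part of these sums in the differences between compartments was not tested.

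A Rab protein switches between a GDP-bound form, which the GDP dissociation inhibitor keeps in the cytosol, and a GTP-bound form, which sits on a membrane and recruits effectors such as tethers and motors. Guanine nucleotide exchange factors (GEFs) turn the switch on, GTPase-activating proteins (GAPs) turn it off, and each Rab protein marks its own membranes, for example Rab5 early endosomes, Rab7 late endosomes, Rab11 recycling endosomes and Rab3 synaptic vesicles. In neurons, Rab proteins carry membrane into the growing axon and move signaling endosomes back to the cell body. The proteins attach to membranes through lipids that the Rab geranylgeranyl transferase adds to cysteines at the end of the protein.

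These cysteines are shown here because they are the feature that the members share and because the closing bases tell close paralogues apart. The last 30 coding bases, stop codon included, were read from the GRCm39 genome for 57 of the members, with cysteine codons in capitals. The last codon and the third from last were cysteine in 19 members, the last 2 codons in 15, the fourth from last in 20, and 3 had another arrangement. The first lines are Rab6a and Rab6b, whose ratio differed between the compartments, followed by other pairs and single members whose level differed between them.
Rab6a (chr7:100288497-100288526, plus strand): ccagtcaatgaaggcggcTGTtccTGCtaa
Rab6b (chr9:103058416-103058445, plus strand): ccggccagcgagggcggcTGCtccTGTtaa
Rab5a (chr17:53813428-53813457, plus strand): ccagccagaagccagTGTTGTagtaactga
Rab5b (chr10:128515399-128515428, minus strand): cagaacaagagccagTGTTGTagcaactga
Rab8a (chr8:72933952-72933981, plus strand): accagcttcttccggTGCagtctcctgtga
Rab8b (chr9:66755001-66755030, minus strand): accagtttcttccgcTGTtctctgctttga
Rab3a (chr8:71210705-71210734, plus strand): gcgccacctcatcaggatTGTgccTGCtga
Rab31 (chr17:65961401-65961430, minus strand): agcttgcaagccagccgtcggTGCTGCtga
Each run is a single stretch of the genome that ends with the stop codon. Over whole coding sequences, the 15 paralogue pairs compared were 62.2% (Rab33a and Rab33b) to 77.4% (Rab6a and Rab6b) identical, and their longest shared run was 13 to 38 bases, below the read length of 100 bases. Rab5a, Rab5b and Rab11b had fractional counts in all 16 libraries, that is, some of their reads were shared with other loci or overlapping genes.

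Rab genes were read at substantial levels in both compartments. The summed level of the 59 members in the +/+ groups was 6331 ± 406 CPM (SD, n = 4) for cell bodies and dendrites and 5017 ± 662 CPM for axons, and it was 6412 ± 395 and 4871 ± 722 CPM in Hnrnpr-/- motoneurons. Rab17, Rab25 and Rab44 did not pass the filter on expression, with at most 0.293 CPM in any library, which left 56 members for testing. Per kb of exon, Rab3a, of synaptic vesicles, stood first in +/+ somatodendritic libraries at 189 ± 15.9 CPM per kb (SD, n = 4). It was followed by Rab6a of the Golgi at 139 ± 13.8, Rab1a of endoplasmic reticulum to Golgi traffic at 130.4 ± 17.5, Rab11a at 130.2 ± 29.1, Rab7 at 125 ± 10.2, the exocytic Rab10 at 103 ± 11.9, Rab6b at 96.7 ± 7.68, Rab18 of lipid droplets at 74.1 ± 18.5, Rab14 of endosome to Golgi traffic at 71.2 ± 9.35 and Rab12 at 64.9 ± 9.27 CPM per kb. Apart from the place of Rab3a, whose libraries lie above those of all other members, most neighbours in this order do not differ beyond their SD. Rab7 and Rab10 differ by more than either SD, as do Rab6b and Rab18.

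In +/+ axons the order was another. Rab31, an endosomal Rab of the Rab5 group, stood first at 155 ± 29.8 CPM per kb, ahead of Rab1a at 125 ± 35.7, Rab7 at 117 ± 11.99, Rab1b at 116 ± 27.5, Rab11a at 111 ± 50.6, Rab6a at 79.8 ± 21.5, Rab18 at 79.0 ± 20.9, Rab14 at 73.8 ± 17.98, Rab10 at 73.1 ± 25.2 and Rab8a at 67.7 ± 16.6 CPM per kb. These neighbours overlap within their SD. Rab3a came next at 64.0 ± 28.9 CPM per kb. Where hnRNP R was lost, Rab3a stood first in the somatodendritic compartment at 158 ± 19.8 and Rab31 first in axons at 192 ± 49.8 CPM per kb. Both places are by the mean alone, as libraries of other members overlap with theirs, such as those of Rab11a with Rab3a. The lengths cover every annotated exon of a gene, from 1170 to 36407 bases, which lowers the per kb level of genes with long alternative exons such as Rab2a and Rab30.

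The synaptic class took a smaller share of the Rab signal in +/+ axons. Of the summed CPM per kb of all members, its share was 12.3% to 16.01% in +/+ somatodendritic and 2.76% to 7.40% in +/+ axonal libraries, with means of 13.9% ± 1.57 and 5.89% ± 2.11 (SD, n = 4). These ranges do not overlap. The Hnrnpr-/- libraries gave 10.4% to 12.7% against 1.91% to 11.8%, with means of 11.6% ± 0.971 and 5.85% ± 4.34. These ranges overlap through axonal library 1, without which the axonal mean was 3.88% and the libraries did not overlap. The endosomal share was 41.2% ± 1.18 in the somatodendritic and 48.2% ± 0.926 in the axonal compartment of +/+ motoneurons, and 42.8% ± 1.45 and 48.6% ± 3.16 in Hnrnpr-/- motoneurons, without overlap in +/+ and with overlap in Hnrnpr-/- libraries. That overlap ended without Hnrnpr-/- axonal library 1, where the axonal mean was 50.2%, or without somatodendritic library 4. The secretory share was 38.7% ± 0.727 and 37.9% ± 0.903 in +/+ motoneurons, where the libraries of both compartments overlap, and 39.4% ± 0.857 and 36.5% ± 0.596 in Hnrnpr-/- motoneurons, where they do not. The share of the other members was 6.13% ± 0.342 and 8.06% ± 1.64 in +/+ motoneurons, with overlap, and 6.18% ± 0.336 and 9.03% ± 1.52 in Hnrnpr-/- motoneurons, without it. Without +/+ axonal library 2 the +/+ libraries did not overlap either. Within the 4 same-numbered pairs of compartments of each genotype, the synaptic and secretory shares were lower and the endosomal and other shares higher in axons in every pair. Single genes weigh heavily in these sums, Rab3a in the synaptic and Rab31 in the endosomal class. Shares without them were not computed.

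**Figure D1:**
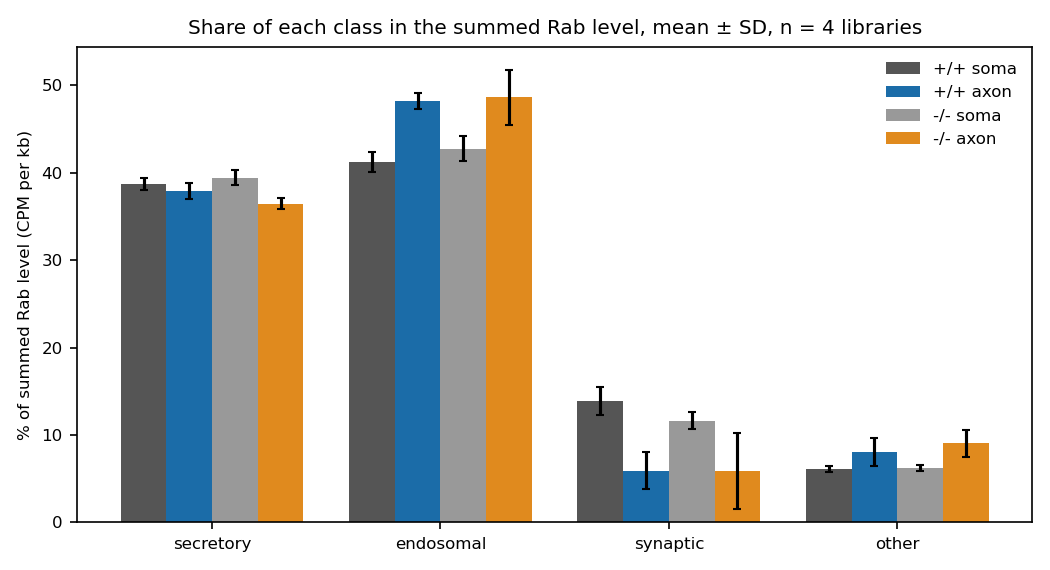
Share of each functional class in the summed Rab level (CPM per kb of exon, percent) in the 4 groups, as group mean and SD. The synaptic share lies between 12.3% and 16.01% in +/+ somatodendritic libraries and between 2.76% and 7.40% in +/+ axonal libraries.

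The first comparison asks which Rab transcripts are found more or less in axons than in the somatodendritic compartment of +/+ motoneurons. Of 56 members, 13 rose and 19 fell in axons relative to the somatodendritic compartment (edgeR quasi-likelihood test, adjusted p below 0.05 by Benjamini-Hochberg over 19964 genes). Over all genes tested, 30.1% were called higher and 27.4% lower, and the share of members called in either direction, 57.1%, is near the 57.5% of all genes. The median log2 fold change of the members was -0.32 against 0.07 for all genes. Without TMM factors the split was 13 higher and 12 lower, the median of all genes was 0.22 and that of the members -0.17. No called member changed its direction under any scaling. The libraries of both compartments did not overlap for 29 members, 9 higher and 20 lower in axons, where 52.4% of all genes did not overlap. By class, 4 secretory genes rose and 6 fell of 15 tested, 5 endosomal genes rose and 5 fell of 20, no synaptic gene rose and 3 fell of 8, and 4 of the others rose and 5 fell of 13. Among the secretory genes that rose is Rab19, which passed the expression filter only through axonal libraries. The counts of genes that fell depend on single libraries: without +/+ somatodendritic library 2, 3 or 4, +/+ axonal library 3 or Hnrnpr-/- somatodendritic library 2, 3 secretory, 3 endosomal and 3 other genes fell. Of all members, 12 fell without +/+ somatodendritic library 1, 2 or 3, +/+ axonal library 3 or Hnrnpr-/- somatodendritic library 2, 11 without +/+ somatodendritic library 4, and 12 without the expression filter or with protein-coding genes alone. With the culture block or with voom, 5 synaptic genes fell. Without the axonal libraries numbered 3, 11 members rose and 16 fell.

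In Hnrnpr-/- motoneurons, 11 members rose and 24 fell in axons, with 27.5% of all genes called higher and 26.8% lower. The median log2 fold change of the members was -0.41, and that of all genes -0.00. The libraries did not overlap for 31 members, 10 higher and 21 lower, against 51.4% of all genes. By class, 3 secretory genes rose and 7 fell, 4 endosomal genes rose and 8 fell, 5 synaptic genes fell and none rose, and 4 of the others rose and 4 fell. Without Hnrnpr-/- somatodendritic library 2 or axonal library 3, 4 secretory, 4 endosomal, 3 synaptic and 2 other genes fell, 13 members in all. Without the axonal libraries numbered 3, 11 rose and 22 fell. The 2 comparisons share no library. In both, 25 members were called, all in the same direction, 7 were called in +/+ alone and 10 in Hnrnpr-/- alone, and 53 of 56 (94.6%) had the same sign. Over all genes tested, 48.1% were called in both genotypes, all in the same direction, 9.35% in +/+ alone and 6.1% in Hnrnpr-/- alone, and 90.5% had the same sign, against 44.6%, 12.5% and 17.9% of the members called in both, in +/+ alone and in Hnrnpr-/- alone.

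**Figure D2:**
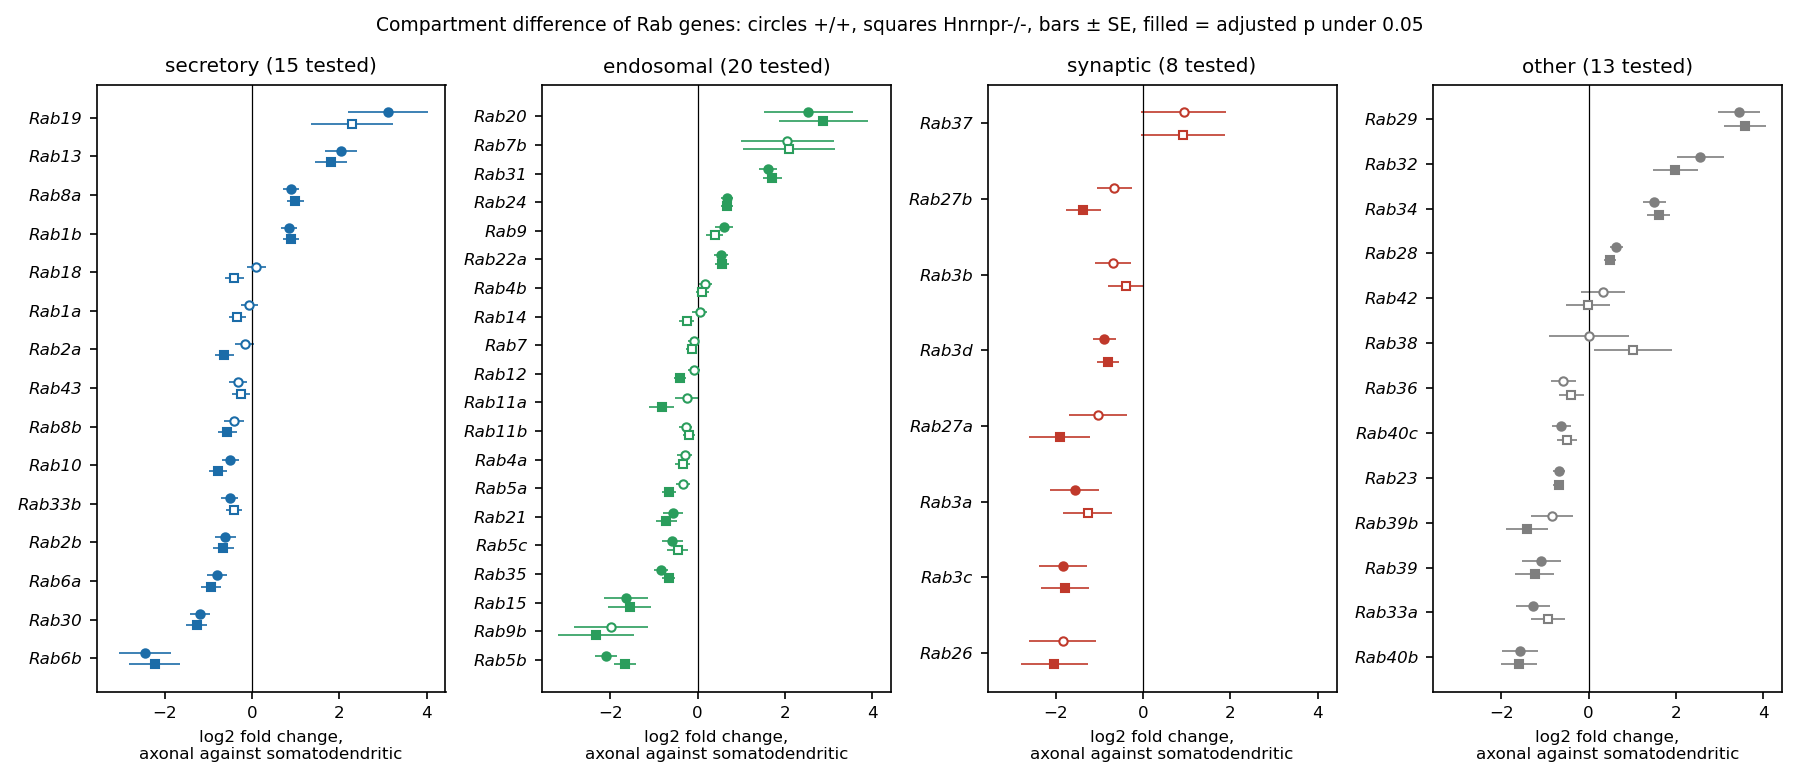
Log2 fold change of axonal against somatodendritic libraries for the 56 members tested, by functional class, with its SE, in +/+ and Hnrnpr-/- motoneurons. No synaptic member passed the test in the higher direction, and Rab29 is the highest with 3.43 and 3.58.

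Among the synaptic members, Rab3a, Rab3c and Rab3d passed the test in +/+ axons, each lower than in the somatodendritic compartment, and Rab3b did not pass in either genotype. Rab3a, the main Rab of synaptic vesicles, was counted at 355, 297, 299.6 and 317 CPM in +/+ somatodendritic libraries numbered 1 to 4 and at 118.9, 150.4, 37.8 and 122 CPM in +/+ axonal libraries. All axonal libraries lie below all somatodendritic ones, and library 3 is the lowest. Rab3a fell by 1.56 ± 0.56 on the log2 scale, or 2.96-fold (SE, adjusted p = 0.0275, edgeR). The call was lost without +/+ somatodendritic library 1 (adjusted p = 0.0597), without somatodendritic library 4 (0.0518) or without axonal library 3, where the difference was -1.24 (0.0819). Rab3a in Hnrnpr-/- motoneurons was at 275.6, 290.4, 276 and 216 CPM in the somatodendritic and at 262, 115.5, 24.2 and 39.3 CPM in the axonal libraries. Axonal library 1 reaches into the somatodendritic range, and this library also had the highest neuronal sum. The log2 difference was -1.26 ± 0.56 (adjusted p = 0.0687), it was -2.15 without that library (0.00205), and with the culture as a replicate block it was -1.85 (0.0163).

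Rab3c, a close relative on synaptic vesicles, was at 193, 214.3, 212 and 213.9 CPM in +/+ somatodendritic libraries and at 62.0, 89.7, 20.3 and 61.9 CPM in +/+ axonal libraries. It fell by 1.83 ± 0.55 on the log2 scale in +/+ axons (adjusted p = 0.0111) and by 1.79 ± 0.55 in Hnrnpr-/- axons (0.0133), with no overlap in either genotype, and without Hnrnpr-/- axonal library 1 the latter difference of Rab3c was -2.58. Rab3d, known from secretory granules of exocrine cells, fell by 0.88 ± 0.26 (0.00862) and 0.80 ± 0.26 (0.0154). The latter call was lost without Hnrnpr-/- somatodendritic library 1 (adjusted p of Rab3d 0.0578) or axonal library 3 (0.067). Rab3b, the fourth of these isoforms, was at 113, 135, 119.4 and 149.8 CPM in +/+ somatodendritic and at 88.1, 73.7, 38.9 and 123 CPM in +/+ axonal libraries, and the ranges overlap. Its log2 differences were -0.68 ± 0.41 (adjusted p = 0.170) and -0.40 ± 0.41 (0.429), and in Hnrnpr-/- motoneurons it was -1.01 without axonal library 1 (0.0221).

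The remaining synaptic members were lower in level. Rab27b, which docks secretory granules, was at 14.4, 20.9, 20.9 and 18.02 CPM in +/+ somatodendritic libraries and at 5.99, 24.7, 7.60 and 8.78 CPM in +/+ axons, where library 2 is above all others. Its log2 difference was -0.66 ± 0.39 (adjusted p = 0.163), without that library -1.32 (0.002), and with the culture block -0.89 (0.0451). In Hnrnpr-/- motoneurons it fell by 1.37 ± 0.40 (0.00954). Rab27a, of melanosomes and lytic granules, was at 1.49 to 1.99 CPM in the somatodendritic and 0.817 to 0.975 CPM in the axonal libraries of +/+ motoneurons. It had a log2 difference of -1.04 ± 0.66 in +/+ (adjusted p = 0.194, and 0.0295 without Hnrnpr-/- axonal library 1) and fell by 1.91 ± 0.69 in Hnrnpr-/- axons (0.0289). That call was lost without Hnrnpr-/- somatodendritic library 2 (adjusted p of Rab27a 0.0532) or 4 (0.0791) or axonal library 2 (0.0748), and in a fit of only the groups compared (0.101). Rab26, of vesicle clustering and autophagy, was at 2.12 to 3.83 CPM in the somatodendritic and at 0 to 2.08 CPM in the axonal libraries of +/+ motoneurons. Its log2 difference was -1.83 ± 0.77 in +/+ (0.0519) and -2.03 ± 0.77 in Hnrnpr-/- motoneurons (0.0358). With the culture block these were -2.61 (adjusted p = 0.0345) and -2.04 (0.0527), and the alternatives gave an adjusted p of Rab26 of up to 0.139 in +/+ and 0.0692 in Hnrnpr-/- motoneurons. The difference of Rab26 passed in +/+ without axonal library 3 (0.0107) or 4 (0.0347), and the call in Hnrnpr-/- motoneurons was lost when any 1 of 8 libraries was left out. Rab37 was at or under 0.698 CPM everywhere.

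**Figure D3:**
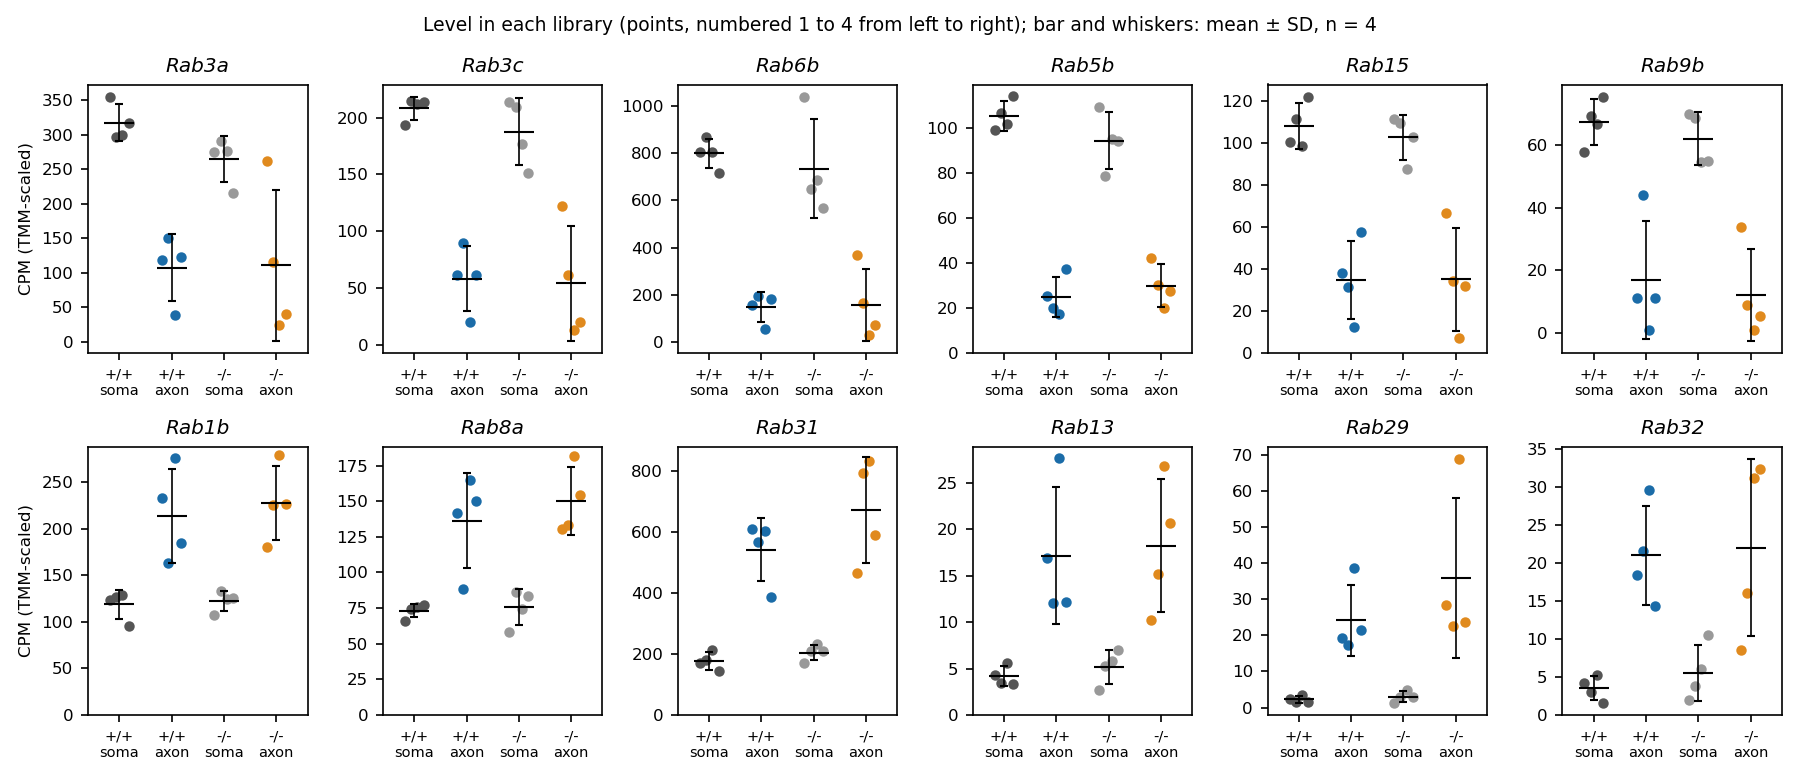
CPM of 12 members in each of the 16 libraries, by group, with the group mean and SD (4 libraries each). Rab3a, Rab3c, Rab6b, Rab5b, Rab15 and Rab9b lie lower and Rab1b, Rab8a, Rab31, Rab13, Rab29 and Rab32 higher in +/+ axonal than in +/+ somatodendritic libraries.

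Among the secretory members, isoforms of the same pathway differed in the size or direction of their change. Rab6b, the isoform of Golgi and retrograde traffic that is best known from neurons, was at 805, 870.02, 808 and 716 CPM in +/+ somatodendritic libraries and at 156, 194, 52.7 and 183 CPM in +/+ axons. All axonal libraries lie far below all somatodendritic ones. Rab6b fell by 2.45 ± 0.60 on the log2 scale, or 5.46-fold (adjusted p = 0.00301, edgeR). The Hnrnpr-/- libraries had 1041, 648, 686 and 568 CPM against 368, 163, 27.0 and 68.9 CPM of Rab6b, and it fell by 2.23 ± 0.59 (0.00563), or by 3.10 without axonal library 1. Rab6a, its ubiquitous counterpart, was at 428, 444, 492 and 531 CPM in +/+ somatodendritic and at 238, 365, 194 and 289 CPM in +/+ axonal libraries. It fell by 0.80 ± 0.24 (adjusted p = 0.00961) and, in Hnrnpr-/- axons, by 0.94 ± 0.24 (0.00429). Per kb of exon, the level of Rab6b was 96.7 CPM against 139 CPM of Rab6a in +/+ cell bodies and dendrites, and 17.7 CPM against 79.8 CPM in +/+ axons.

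Rab1b and Rab8a were higher in axons. Rab1b, which acts with Rab1a in traffic from the endoplasmic reticulum to the Golgi, was at 124, 127, 129 and 95.8 CPM in +/+ somatodendritic and at 233, 162.5, 275 and 184 CPM in +/+ axonal libraries. It rose by 0.85 ± 0.18 on the log2 scale (adjusted p = 0.00129) and by 0.89 ± 0.18 in Hnrnpr-/- motoneurons (0.00102). Rab1a was at 302 to 421.5 CPM and 289.9 to 507 CPM in these compartments of +/+ motoneurons, with a log2 difference of -0.06 ± 0.19 (adjusted p = 0.80). Its difference in Hnrnpr-/- motoneurons was -0.34 ± 0.19 (0.147), and -0.49 without axonal library 1 (0.0387). Rab8a, which directs vesicles to the plasma membrane and the cilium, was at 66.2, 74.3, 75.7 and 77.1 CPM in +/+ somatodendritic and at 142, 88.3, 165 and 150.3 CPM in +/+ axonal libraries. It rose by 0.89 ± 0.19 (0.00124) in +/+ and by 0.99 ± 0.19 (0.000741) in Hnrnpr-/- axons, with no overlap in either. Rab8b had a log2 difference of -0.41 ± 0.22 in +/+ motoneurons (0.124) and fell by 0.57 ± 0.22 in Hnrnpr-/- axons (0.042), a call of Rab8b made in 10 of 29 alternatives.

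Rab13, which acts at cell junctions, and whose mRNA is known to accumulate in protrusions of migrating cells, was at 4.34, 3.47, 5.63 and 3.29 CPM in +/+ somatodendritic libraries. In +/+ axons it was at 16.9, 12.01, 27.6 and 12.1 CPM, above every somatodendritic library and highest in library 3. Rab13 rose by 2.03 ± 0.37 on the log2 scale, or 4.09-fold (adjusted p = 0.000457), and by 1.81 ± 0.37 in Hnrnpr-/- motoneurons (0.00108). Rab10, of exocytic vesicles that add membrane to growing axons, was at 314 to 414 CPM in +/+ somatodendritic and 183 to 383 CPM in +/+ axonal libraries. It fell by 0.49 ± 0.20 (0.0483), a call lost when any 1 of 14 of the 16 libraries was left out (adjusted p of Rab10 up to 0.189 over all alternatives), and by 0.77 ± 0.20 in Hnrnpr-/- axons (0.00537). Rab2a, of Golgi traffic and the making of dense-core vesicles, had a difference of -0.16 ± 0.22 in +/+ (0.535) and fell by 0.63 ± 0.22 in Hnrnpr-/- axons (0.0231). That call of Rab2a was lost without Hnrnpr-/- somatodendritic library 2 (adjusted p = 0.0862) or axonal library 2 (0.0567), 3 (0.0818) or 4 (0.0585), without both axonal libraries numbered 3 (0.0514) and without TMM factors (0.0567). Rab18 had differences of 0.09 ± 0.22 (0.738) and -0.41 ± 0.22 (0.125, and 0.0391 without Hnrnpr-/- axonal library 1). Rab30 fell by 1.19 ± 0.23 and 1.27 ± 0.23 in the 2 genotypes. Rab19, which passed the test in +/+ axons, was at most 1.202 CPM in any library. It had 0 to 4 reads in the somatodendritic and 1 to 37 reads in the axonal libraries. It thus passed the expression filter only through axonal libraries, where it is higher, and its call is no support for a rise.

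Among the endosomal members, Rab31 had the highest axonal level. It was at 170.5, 181, 214 and 145 CPM in +/+ somatodendritic and at 610.3, 567, 605 and 389 CPM in +/+ axonal libraries, and at 169.5 to 232 CPM against 466, 796, 835 and 591 CPM in Hnrnpr-/- motoneurons. All axonal libraries lie above all somatodendritic ones. Rab31 rose by 1.61 ± 0.21 on the log2 scale, or 3.06-fold, in +/+ (adjusted p = 4.85e-05) and by 1.71 ± 0.21 in Hnrnpr-/- axons (4.68e-05). Rab22a, of the same branch, rose by 0.54 ± 0.16 and 0.57 ± 0.16. Rab24, tied to autophagy, rose by 0.68 ± 0.14 and 0.66 ± 0.14. Rab20, of macrophage phagosomes, was under 1 CPM in every somatodendritic library and at 2.997, 0, 3.51 and 2.69 CPM in +/+ axons. No read was counted in library 2, which allows up to 0.0811 CPM at 3 counts (counting error only). The log2 difference of Rab20 was 2.53 ± 1.02 (0.0451), lost with the culture as a block, where it was 2.01 (0.139), and lost when any 1 of 12 libraries was left out. In Hnrnpr-/- axons Rab20 rose by 2.88 ± 1.02 (0.027), but with the culture block the adjusted p was 0.0547, and without axonal library 4, where it was at 8.72 CPM, it was 0.139. The call was also lost without somatodendritic library 1 (0.0669), 2 (0.0638) or 3 (0.0695). The sum of 6 microglia genes was highest in that axonal library, at 228 CPM, and its part in the level of Rab20 was not tested.

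Of the Rab5 isoforms of early endosomes, Rab5b had the largest difference in both genotypes. Rab5b was at 99.1, 106.5, 101 and 114 CPM in +/+ somatodendritic libraries and at 25.0, 19.9, 17.1 and 37.3 CPM in +/+ axons, and at 78.3 to 109 CPM against 42.3, 30.03, 19.7 and 27.4 CPM in Hnrnpr-/- motoneurons. The groups do not overlap in either genotype. Rab5b fell by 2.08 ± 0.25, or 4.24-fold, in +/+ (adjusted p = 3.37e-05) and by 1.66 ± 0.25 in Hnrnpr-/- axons (0.000146). Rab5a was at 88.6, 113, 139.9 and 105 CPM in +/+ somatodendritic and at 88.1, 91.2, 80.4 and 94.6 CPM in +/+ axonal libraries, and these ranges overlap. Its difference was -0.33 ± 0.15 in +/+ (0.0711, and 0.0418 without somatodendritic library 1), and it fell by 0.65 ± 0.15 in Hnrnpr-/- axons (0.00249). Rab5c fell by 0.58 ± 0.24 in +/+ (0.0477), which did not hold with the culture block (0.0631) or when any 1 of 12 libraries was left out, with an adjusted p of Rab5c of up to 0.180. In Hnrnpr-/- motoneurons the difference of Rab5c was -0.46 ± 0.24 (0.117), and -0.79 without axonal library 4 (0.00479).

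Rab15, a Rab of early and recycling endosomes that is enriched in neurons, was at 100.4, 111, 98.3 and 122 CPM in +/+ somatodendritic and at 37.8, 31.4, 12.1 and 57.5 CPM in +/+ axonal libraries. Rab15 fell by 1.64 ± 0.50 (adjusted p = 0.0115) and by 1.56 ± 0.50 in Hnrnpr-/- axons (0.0159). Rab9b, an isoform of the late endosomal Rab9, was at 57.6, 69.2, 66.6 and 75.2 CPM in +/+ somatodendritic and at 11.3, 44.1, 1.24 and 11.2 CPM in +/+ axonal libraries, which span a wide range without reaching the somatodendritic one. Its log2 difference was -1.98 ± 0.85 in +/+ (0.0585), -2.72 with the culture block (0.0226) and -3.09 without axonal library 2 (0.00911), and the adjusted p of Rab9b was also under 0.05 without Hnrnpr-/- axonal library 1 (0.0288) or 3 (0.0329). Rab9b fell by 2.33 ± 0.86 in Hnrnpr-/- axons (0.0331), which was lost when any 1 of 5 Hnrnpr-/- libraries was left out, with an adjusted p of up to 0.0858, and which was -3.15 with the culture block and -3.58 without axonal library 1. Rab9 itself, in contrast, rose by 0.60 ± 0.20 in +/+ axons (0.0163), a call of Rab9 that was lost without the axonal libraries numbered 3 (0.0522). In Hnrnpr-/- motoneurons the difference of Rab9 was 0.39 ± 0.20 (0.103, and 0.0268 without somatodendritic library 2), and the libraries overlap.

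Rab35, of recycling endosomes, and Rab21, of integrin traffic, were the other endosomal members that fell in +/+ axons. Rab35 fell by 0.83 ± 0.16 (adjusted p = 0.000565) and, in Hnrnpr-/- axons, by 0.66 ± 0.16 (0.0029). Rab21 fell by 0.56 ± 0.23 (0.0496), a call made in 6 of 29 alternatives, and by 0.71 ± 0.23 in Hnrnpr-/- axons (0.0174), which was lost without Hnrnpr-/- somatodendritic library 2 (adjusted p of Rab21 0.0521) or axonal library 3 (0.069).

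For the endosomal members that follow, the difference did not pass the test in +/+ motoneurons. Rab7, of late endosomes and lysosomes, was at 304, 311, 329 and 364 CPM in +/+ somatodendritic and at 290.7, 325, 272.5 and 342 CPM in +/+ axonal libraries, a log2 difference of -0.09 ± 0.13 (adjusted p = 0.573), and the difference in Hnrnpr-/- motoneurons was -0.14 ± 0.13 (0.386). Rab14 had differences of 0.05 ± 0.17 (0.813) and -0.25 ± 0.17 (0.223). Rab11a, of recycling endosomes, was at 213 to 371 CPM and 183 to 434 CPM in the 2 compartments of +/+ motoneurons, with a difference of -0.24 ± 0.28 (0.485). Without +/+ axonal library 2, its highest, the difference of Rab11a was -0.61 (0.0339). In Hnrnpr-/- axons Rab11a fell by 0.82 ± 0.28 (0.0215), a call lost without somatodendritic library 2 (0.0696) or axonal library 2 (0.0557) or 3 (0.0769). Rab11b had differences of -0.28 ± 0.14 (0.107) and -0.20 ± 0.14 (0.252, and 0.0345 without Hnrnpr-/- axonal library 1), and Rab4a, of fast recycling, -0.30 ± 0.17 (0.152) and -0.34 ± 0.17 (0.110, and 0.00355 without that library). Rab12 had a difference of -0.09 ± 0.14 in +/+ (0.586) and fell by 0.40 ± 0.14 in Hnrnpr-/- axons (0.0229), which was lost without somatodendritic library 2 (adjusted p of Rab12 0.0943) or axonal library 3 (0.0803) or 4 (0.0517), and also without TMM factors (0.1004), without the expression filter (0.0797) and with protein-coding genes alone (0.0539).

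The largest change of all members was in the remaining class. Rab29, which recruits the kinase LRRK2 to membranes, was at 2.29, 1.53, 3.52 and 1.596 CPM in +/+ somatodendritic and at 19.4, 17.3, 38.8 and 21.5 CPM in +/+ axonal libraries. In Hnrnpr-/- axons it was at 28.5, 22.5, 68.9 and 23.8 CPM, and library 3 is the highest of each genotype. Rab29 rose by 3.43 ± 0.48 on the log2 scale, or 10.8-fold, in +/+ (adjusted p = 7.7e-05) and by 3.58 ± 0.48 in Hnrnpr-/- axons (7.96e-05). Rab32, of lysosome-related organelles, was at 4.22, 3.06, 5.26 and 1.64 CPM in +/+ somatodendritic and at 18.4, 21.5, 29.6 and 14.4 CPM in +/+ axonal libraries, and rose by 2.56 ± 0.53 (0.00105) and 1.98 ± 0.52 (0.00514). Rab34, of lysosome positioning and the cilium, was at 16.7 to 19.95 CPM in +/+ somatodendritic and at 53.6, 32.0, 72.2 and 57.8 CPM in +/+ axonal libraries, and rose by 1.51 ± 0.26 (0.00033) and 1.61 ± 0.26 (0.000259). Rab40b, whose protein joins a ubiquitin ligase, was at 4.89 to 11.3 CPM and 1.88 to 3.43 CPM, and fell by 1.56 ± 0.41 (0.00485) and 1.6 ± 0.41 (0.00477). Of the rest of this class, Rab28 rose, and Rab23, an inhibitor of Hedgehog signaling, Rab33a, Rab39 and Rab40c fell in +/+ axons. Among them, Rab39 passed in 7 of 29 alternatives and not with the culture block (0.0524), and Rab40c in 19 of 29.

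Several of these levels were extreme in the +/+ axonal library with the lowest neuronal and the highest smooth muscle sum. Rab3a, Rab3c, Rab6b, Rab9b and Rab15 were lowest, and Rab13 and Rab29 highest, in +/+ axonal library 3. In the somatodendritic compartment these 5 genes lay within narrower ranges, such as 716 to 870.02 CPM for Rab6b in +/+ libraries. Not all libraries followed the sums: Rab15 was higher in +/+ axonal library 4 than in library 2, which had the higher neuronal sum. The common dispersion, a measure of the spread between replicate libraries, was 0.303 in axonal and 0.0535 in somatodendritic libraries.

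**Figure D4:**
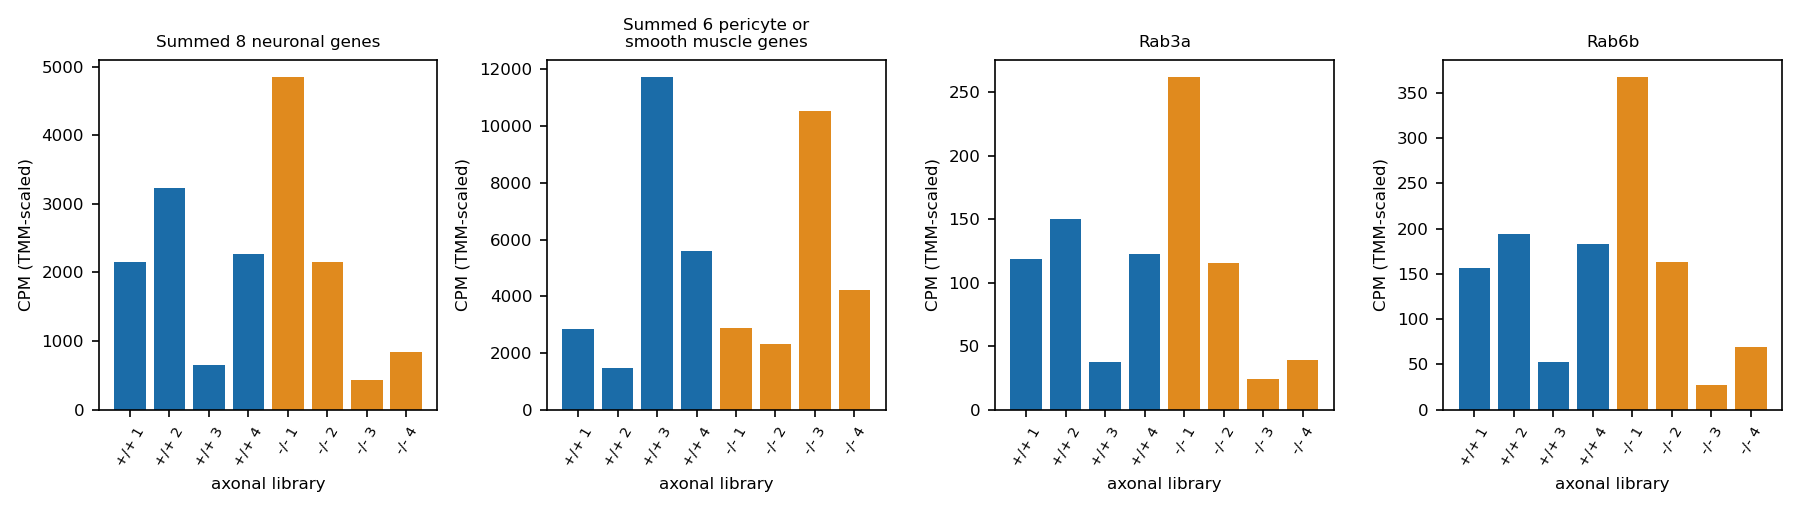
Summed CPM of 8 neuronal and of 6 pericyte or smooth muscle genes and CPM of Rab3a and Rab6b in each of the 8 axonal libraries. The libraries numbered 3 are lowest for the neuronal sum, Rab3a and Rab6b (27.0 CPM in Hnrnpr-/-) and highest for the smooth muscle sum.

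The ratio of 2 paralogues within a library does not depend on library size or scaling. It is a ratio of counts, not per length, so a value of 0 does not mark equal levels and the difference between compartments is what it shows. For 16 such ratios, the mean log2 ratio of the 4 axonal libraries was set against that of the 4 somatodendritic ones with a two-sided exact permutation test, whose smallest possible p is 0.0286. No p-value of 0.0286 would remain under 0.05 after adjustment over the ratios, so these values describe whether the libraries overlap. The log2 ratio of Rab6a to Rab6b was -0.76 ± 0.24 in +/+ somatodendritic and 1.01 ± 0.59 in +/+ axonal libraries (SD, n = 4), a difference of 1.77 with no overlap (exact permutation p = 0.0286). In Hnrnpr-/- motoneurons this difference was 1.80, again with no overlap. The ratio of Rab5a to Rab5b was 0.07 ± 0.29 and 1.90 ± 0.42, a difference of 1.83 in +/+ and of 1.06 in Hnrnpr-/- motoneurons. The ratio of Rab8a to Rab8b was higher in axons by 1.30 and 1.62, and that of Rab9 to Rab9b by 3.48 and 3.64. Conversely, the ratio of Rab3a to Rab3b was lower in axons by a log2 difference of -0.95 in +/+ and -1.19 in Hnrnpr-/- motoneurons. These 5 ratios did not overlap between the compartments in either genotype.

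For some of the other ratios the libraries overlapped in 1 of the 2 genotypes. The ratio of Rab1a to Rab1b differed by -1.23 in Hnrnpr-/- motoneurons without overlap, and by -0.92 in +/+ motoneurons with overlap (exact permutation p = 0.0857). The ratio of Rab4a to Rab4b differed by -0.47 in +/+ without overlap and by -0.49 in Hnrnpr-/- with overlap. The ratio of Rab11a to Rab11b differed by -0.63 in Hnrnpr-/- and by -0.02 in +/+, that of Rab3a to Rab3c by 0.47 and 0.29, and that of Rab40b to Rab40c by -1.27 and -0.82. Without +/+ axonal library 2, the +/+ differences were -0.30 for Rab11a to Rab11b, still with overlap, and -1.25 for Rab40b to Rab40c, 0.33 for Rab3a to Rab3c and -1.22 for Rab1a to Rab1b, all without overlap. In these last 3, with all libraries, the Hnrnpr-/- libraries did not overlap and the +/+ libraries did. The ratio of Rab4a to Rab4b in Hnrnpr-/- motoneurons did not overlap without somatodendritic library 4 or axonal library 1. Within same-numbered pairs of compartments, the ratio of Rab3a to Rab3c was higher in axons in all 4 pairs of either genotype, and that of Rab4a to Rab4b lower in all 4 of either genotype, with an exact sign-flip p of 0.125, the smallest that 4 pairs allow. With all libraries, the remaining ratios overlapped between the compartments in both genotypes. They were Rab2a to Rab2b, Rab3a to Rab3d, Rab5a to Rab5c, Rab27a to Rab27b, Rab33a to Rab33b and Rab39 to Rab39b. Without +/+ axonal library 2, the +/+ libraries of Rab3a to Rab3d and of Rab33a to Rab33b did not overlap. Whether a ratio's difference itself differs between genotypes was not tested.

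**Figure D5:**
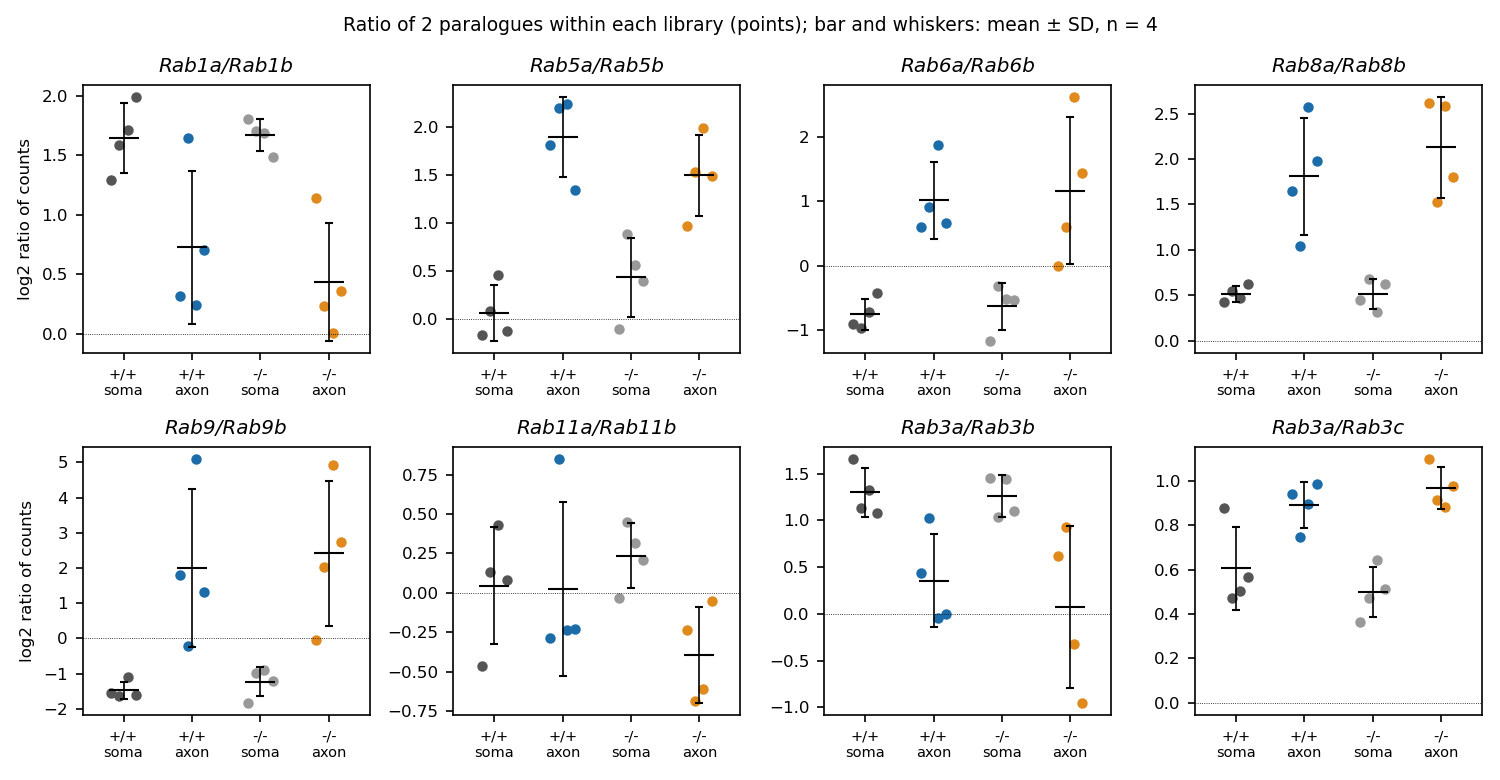
Log2 ratio of counts of 8 paralogue pairs in each library of the 4 groups, with the group mean and SD. The ratio of Rab6a to Rab6b has a mean of -0.76 in the +/+ somatodendritic and of 1.01 in the +/+ axonal libraries, and these libraries do not overlap.

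The second question is whether the loss of hnRNP R changed Rab transcripts in either compartment. In axons, none of the 56 members passed the adjusted threshold between Hnrnpr-/- and +/+ libraries, where 0.01% of all genes did, and 0 passed an unadjusted p of 0.05, where 3.88% of all genes did. No member had Hnrnpr-/- and +/+ axonal libraries that did not overlap, against 0.606% of all genes. The member nearest to the unadjusted threshold was Rab27b, with a log2 difference of -0.68 ± 0.39 (SE). Every member had an adjusted p that rounds to 1. Without Hnrnpr-/- axonal library 1, 3 members, Rab2a, Rab11a and Rab31, passed the unadjusted threshold and none the adjusted one. The SE of a member's genotype difference in axons was 0.13 to 1.00, with a median of 0.24. The fit pools the spread of all 4 groups, and the median SE was also 0.24 in the somatodendritic compartment. Differences of that size, and larger ones, could go uncalled.

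In the somatodendritic compartment, none of the 56 passed the adjusted threshold, where 0.00501% of all genes did, and 0 passed the unadjusted one, where 0.601% of all genes did. The member nearest to the unadjusted threshold was Rab5a, with a difference of 0.19 ± 0.15. Rab3a was the 1 member whose libraries did not overlap, against 1.58% of all genes. It was at 216 to 290.4 CPM in Hnrnpr-/- and 297 to 355 CPM in +/+ somatodendritic libraries. Its fitted difference was -0.26 ± 0.55, in a fit that shares the spread of all 4 groups, axonal ones included. With the 8 somatodendritic libraries alone the difference of Rab3a was -0.25 and passed the unadjusted threshold, with an adjusted p = 0.999 (edgeR). The somatodendritic Hnrnpr-/- library 4, the lowest for Rab3a, also had the lowest neuronal sum of its compartment, 5694 CPM, and its part in the difference was not tested.

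Last, the genotype effect was compared between compartments with an interaction term. None of the 56 passed the adjusted threshold (0% of all genes) or the unadjusted one (1.33% of all genes). Rab18 came nearest to the latter, with a difference of differences of -0.50 ± 0.31. The members called in a single genotype above, such as Rab27b (interaction -0.71 ± 0.55), Rab11a (-0.59 ± 0.39), Rab2a (-0.47 ± 0.31) and Rab5a (-0.32 ± 0.21), are therefore not shown to differ between genotypes.

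The machinery that loads, anchors and reads Rab proteins was taken as a list of 100 genes, of which 98 were tested, all but Sytl1 and Sytl3. In +/+ axons 18 rose and 45 fell, with a median log2 fold change of -0.47, and in Hnrnpr-/- axons 21 rose and 45 fell, with a median of -0.49. Over all genes, 30.1% rose and 27.4% fell in +/+ axons, and 27.5% rose and 26.8% fell in Hnrnpr-/- axons. Without the axonal libraries numbered 3, 60 and 58 of the 98 cycle genes were called, where 53.5% and 49.7% of all genes were. Of genes for prenylation and GDP dissociation inhibitors, 1 rose and 3 fell of 8 in +/+ axons. Gdi2, a GDP dissociation inhibitor, had a difference of 0.13 ± 0.13 (adjusted p = 0.404). Of the subunits of the geranylgeranyl transferase, Rabggta fell by 0.76 ± 0.16 (0.00114) and Rabggtb had a difference of 0.22 ± 0.19 (0.347). Chm, which presents Rab proteins to this enzyme, had a difference of 0.05 ± 0.35 (0.916).

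Of the GEFs, 5 rose and 11 fell of 28 in +/+ axons. Madd, the GEF of Rab3 and Rab27, was at 334 CPM on average in the somatodendritic and 46.8 CPM in the axonal libraries and fell by 2.83 ± 0.54 (adjusted p = 0.000569). Rabgef1, a GEF of Rab5, had a difference of -0.48 ± 0.25 (0.116, and 0.00889 without +/+ axonal library 4). Rin1 and Rin3, also GEFs of the Rab5 group, were among the largest increases: Rin1 was at 1.03, 0.855, 1.37 and 1.17 CPM in +/+ somatodendritic and at 9.60, 2.76, 20.1 and 73.8 CPM in +/+ axonal libraries, and rose by 4.58 ± 0.82 (0.000387). Library 4 is the highest, and without it the difference of Rin1 was 3.34 (adjusted p = 0.000572), and with the culture block it was 3.71. Rin3 rose by 3.36 ± 0.74 (0.00157). Of the GAPs, 4 rose and 11 fell of 23. Tbc1d24, linked to epilepsy and synaptic vesicle traffic, fell by 3.27 ± 0.41 (4.23e-05), Tbc1d30 by 3.21 ± 0.63 (0.000694) and Rab3gap1, of the Rab3 GAP complex, by 1.08 ± 0.29 (0.00603), while Tbc1d2 rose by 2.85 ± 0.64 (0.00185), or by 1.89 without +/+ axonal library 4.

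Effectors fell in 19 and rose in 6 of 36 cases in +/+ axons. Rims1, the Rab3-binding scaffold of the active zone, was at 121 to 154 CPM in +/+ somatodendritic and at 16.1, 27.3, 4.94 and 19.0 CPM in +/+ axonal libraries and fell by 3.0 ± 0.63 (adjusted p = 0.00113). Rph3a, which binds Rab3 on vesicles, fell by 2.90 ± 0.52 (0.000373) and Myrip, which links Rab27 to myosin, by 3.15 ± 0.68 (0.00136). Of the Rab5 effectors of early endosome fusion, Rabep1 fell by 1.36 ± 0.26 (0.00058), and Eea1 had a difference of -0.33 ± 0.27 (0.309). Of 3 kinase and phosphatase genes, 2 rose and 1 fell. Between genotypes none of the 98 was called in either compartment. At an unadjusted p of 0.05, 1 of the 98 was found in axons, where 3.88% of all genes were, and 0 in the somatodendritic compartment, where 0.601% were. The 1 gene was Rab11fip2, an effector of Rab11, with a log2 difference of -1.31 ± 0.55 (SE).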

How the data were processed

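Per the methods, reads of 100 bases were trimmed with Cutadapt 2.5 (Phred 20) and, per the labels, aligned with STAR 2.7.2b to GRCm39 and counted with featureCounts 1.6.4. Reads with several alignments or genes were split among them, and counting was set to the reverse strand although the library kit does not mark strand; the share of reads this sets aside was not tested. The authors deposited these estimated counts without normalization. They were rounded, and edgeR 4.0.16 (R 4.3.3) was used: filter by expression per group (19964 genes left), TMM factors, a quasi-likelihood fit of 4 group means to all 16 libraries, and Benjamini-Hochberg adjustment over all genes, threshold 0.05, two-sided. The SE is the size of a log2 fold change divided by the square root of F. CPM use TMM factors, paralogue ratios a pseudocount of 0.5 counts. No 2 libraries were identical, and 0 columns were left unused. The tests were checked on counts simulated with the same dispersion of a gene in every group. This check does not cover the wider spread of axonal libraries.

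The members, classes, lists and tests were chosen with earlier results of these data known, and the 8 neuronal genes after their values were seen. Named were all synaptic members, chosen secretory and endosomal members and Rab cycle genes, the 6 largest increases and decreases in +/+ axons with at least 1 CPM over +/+ libraries, members under an unadjusted p of 0.05 between genotypes, the 10 highest per kb in either +/+ compartment, and the 3 largest increases and decreases of the Rab cycle list with the same 1 CPM minimum. Rab1b, Rab9, Rab9b, Rab8b, Rab21, Rab35, Rab22a, Rab24, Rab19, Rab30 and members of the remaining class beyond this rule were named after their values were seen. Coding ends are from the lowest-numbered principal transcript in GENCODE vM39 with a consensus coding sequence.

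Axonal and somatodendritic libraries with the same number within a genotype deviated from their group means together (r = 0.105 to 0.241 in +/+, 0.175 to 0.508 in Hnrnpr-/-), so the numbers were taken to pair the compartments of a culture, and a block by culture was fitted as an alternative. Further alternatives were RLE factors, library totals without TMM, other filters, unrounded counts, DESeq2 1.42.0 with and without shrinkage, voom of limma 3.58.1, only the groups compared, protein-coding genes alone, the number as a block, each library left out, and the axonal libraries numbered 3 left out, the last and the block by culture added after seeing the data.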

Additional observations from a re-analysis of the deposited data

Results flagged for a closer look

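A library was marked where its gap to the nearest other library, divided by the range of its group of 4, passed Dixon's 95% value. This marked 20 of 224 sets of a member and a group, where chance alone gives about 11.2, or 1 in 20. In +/+ axonal library 2, 4 members were marked: Rab1a at 507 CPM, Rab11a at 434 CPM, Rab14 at 322 CPM and Rab27b at 24.7 CPM, all above the other +/+ axonal libraries. In +/+ axonal library 4, Rab42 was at 3.37 CPM.

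In +/+ somatodendritic library 4, Rab1b was at 95.8 CPM and Rab4b at 29.99 CPM, below the other libraries, and Rab2b was at 91.8 CPM and Rab36 at 43.8 CPM, above them. Rab43 was at 45.0 CPM in +/+ somatodendritic library 2, and Rab3c at 193 CPM in library 1.

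Of the Hnrnpr-/- axonal libraries, number 4 had Rab5c at 25.9 CPM, Rab7b at 26.8 CPM and Rab38 at 5.44 CPM, all above the others, and number 4 is also the library with the highest microglia sum (228 CPM), whose part in these values was not tested. Rab2a was at 400.2 CPM in number 1, and Rab29 at 68.9 CPM in number 3. In the Hnrnpr-/- somatodendritic libraries, Rab19 was at 0.126 CPM and Rab35 at 23.3 CPM in number 3, Rab20 at 0.858 CPM in number 4 and Rab3b at 142 CPM in number 2.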

How the results depend on the processing

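Of 67 calls of members between compartments, 32 in +/+ and 35 in Hnrnpr-/- motoneurons, 43 were made under all 29 alternatives, 21 in +/+ and 22 in Hnrnpr-/- motoneurons, and Rab19 in +/+ under the 27 that tested it, and no call changed its direction. With each library left out in turn, 23 to 34 members were called in +/+ and 24 to 40 in Hnrnpr-/- motoneurons, and 58 to 70 and 54 to 70 Rab cycle genes. Between genotypes 0 members were called with any library left out, and at an unadjusted p of 0.05 it was 0 to 3 in axons, 0 to 1 in the somatodendritic compartment and 0 to 2 for the interaction (Rab2a and Rab18 without Hnrnpr-/- axonal library 1). The others, without 1 +/+ library each, were Rab27b, Rab19 and Rab5b in axons, the last also in the interaction, and Rab5a in the somatodendritic compartment and in the interaction, and Rab33a in axons without Hnrnpr-/- library 3. At that unadjusted p, voom gave 1 member in axons and 2 in the somatodendritic compartment, and the fit of only the groups compared gave 1 in the latter. With the replicate number as a block, 32 members were called in +/+ and 38 in Hnrnpr-/- motoneurons, and with the block by culture 35 and 36, and the blocks changed no other call of a member than those given beside their genes and those of Rab19 and Rab33a in Hnrnpr-/- and Rab7b, Rab36 and Rab39b in +/+ motoneurons, which were gained. Same-numbered libraries of different genotypes correlated at -0.05 to 0.36 in the somatodendritic and 0.01 to 0.68 in the axonal compartment, each best with its own number for somatodendritic number 3 and axonal numbers 2 and 3 and not for the others, so the number was not taken to pair the genotypes, and a shared batch behind a number cannot be told from the labels. Other totals of called members and of called cycle genes were within 1.5 times the reported ones, but the members that fell numbered 11 to 23 in +/+ axons (19 as reported) and 13 to 32 in Hnrnpr-/- axons (24), and those that rose 11 to 14 and 10 to 13. By class, the members that fell in +/+ axons numbered 3 to 6 secretory, 3 to 7 endosomal, 2 to 5 synaptic and 3 to 6 others over all alternatives, and in Hnrnpr-/- axons 4 to 10, 4 to 10, 3 to 7 and 2 to 6. Endosomal members that rose in +/+ axons numbered 3 to 6, with 3 without the axonal libraries numbered 3. The wide spread of axonal libraries limits what can be seen between genotypes, and members under 1 CPM rest on few reads.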

Other observations

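Relative to the other libraries of its group, Hnrnpr-/- axonal library 1, with the highest neuronal sum of its group, held the highest level of 30 of 56 members, and its median deviation from the group mean was 0.21 on the log2 scale for the members against 0.05 for all genes. Hnrnpr-/- axonal library 3, with the lowest neuronal sum, had a median deviation of -0.21 for the members against -0.01 for all genes. In +/+ axons, library 2 held the highest level of 20 members and library 3 of 16.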
